A study of Mus musculus with 12 samples.

Results

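Kdm6a, Kdm5c and Phf8 are 3 genes of the mouse X chromosome that encode histone demethylases, enzymes that take methyl groups off histone tails. Their RNA was read allele by allele in poly(A) libraries of embryonic fibroblasts (MEF) and of cells reprogrammed with the Sendai virus vector SeVdp(fKOSMaB). Members were all single-base variants covered by 20 or more reads that the deposited tables assign to these genes, which gave 74 of the 6478 such sites and 3 of the 399 genes measured on the X chromosome. Kdm5c held 53 of the sites, Phf8 held 13 and Kdm6a held 8. A single library listed between 13 (LowK day 35) and 48 (MidK2 day 36) of them.

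There were 12 libraries. MEF1 and MEF2 are fibroblasts at day 0 without vector or added agent. LowK received the vector and no Shield1 and was sampled at days 35, 52 and 56. MidK1 received the vector and 30 nM Shield1, a ligand that protects proteins carrying a destabilising tag from degradation, and was sampled at the same 3 days. MidK2 also received the vector and 30 nM Shield1 and was sampled at days 18, 22, 29 and 36. Each reprogrammed library stands alone for its course and day, and the labels do not say whether the MEF libraries came from separate cultures, so p-values measure the spread between reads or between these libraries, not between cultures. No source used here gives the mouse strains, the sex of the embryos or the meaning of the course names.

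In a female cell 1 of the 2 X chromosomes is silenced early in development, and reprogramming to pluripotency can bring the silent copy back. Some genes escape this silencing and are read from both copies in differentiated cells. Kdm6a and Kdm5c are textbook escape genes in the mouse, and each has a related copy on the Y chromosome, Uty and Kdm5d. The Kdm6a protein (also called UTX) removes the methyl marks that Polycomb proteins place on histone H3, the Kdm5c protein removes methyl marks of active promoters, and the Phf8 protein binds promoters through its PHD finger and removes repressive methyl marks.

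The measure is the reference share of a site or gene, the percent of covering reads that do not carry the variant allele. A position where all reads match the reference genome is not in a table of variants. A site where nearly all reads carry the variant can be read from 1 chromosome, or can carry the variant on both, and these cannot be told apart here. The tables fall into 2 sets: MEF1, LowK and MidK1 (7 libraries) list variants down to 5 reads and 10% of reads, and MEF2 and MidK2 (5 libraries) list them down to 2 reads and 5%. The libraries held 1507 to 3871 sites of 20 or more reads, with a median coverage of 35 to 39 reads per site. The labelled cell type could be checked only with X-linked genes. At sites listed in all 12 libraries, with coverage scaled by the median ratio over 1361 such sites, 5 of the 8 listed fibroblast genes had 532 to 645 reads per site in MEF and 62.9 to 109.9 in reprogrammed cells. The 2 of 8 listed pluripotency or germline genes that could be measured had 37.1 to 47.2 in MEF and 55.7 to 105.7 in reprogrammed cells. Reads with the variant made up 36.2 to 47.0 of these in MEF and 45.8 to 85.6 in reprogrammed cells. Reads without it made up 0.237 to 0.878 and 2.02 to 47.1. The rise thus includes reads of the reference allele, which makes it a weak check of cell type. The part of this change of cell type in the results below was not tested.

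The 3 genes behaved as 3 different cases. Kdm5c was read from both alleles in every library, fibroblasts included, with the variant allele in the majority at the sites that all 12 libraries list. It was called different in 0 of the 25 pairs of libraries compared, where 4.55% of all gene tests were called. The pairs reuse the same libraries and 0 of 25 is near that share, so this count does not set Kdm5c apart. Kdm6a reached 20 reads in the 10 reprogrammed libraries and in neither MEF library, with shares of 42.2 to 72.4%. Phf8 had a gene-level share of 0.0 to 58.6%, a value that averages unlike sites: 5 sites inside a short repeat of its 3′ UTR were at 35.5 to 84.4%, and the 10 other sites listed in 2 or more libraries were at 0 to 16.7%. Phf8 sites of 20 or more reads listed in 1 library only were at 90.5 to 93.1%.

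The windows below, from GENCODE M21 transcripts on mm10, carry the sites on which these statements rest. They are read 5′ to 3′ on the plus strand, which is the coding strand of all 3 genes, and capitals mark the variant bases.
Kdm5c chrX:152272245-152272274: gacttgaagagggtccagacactTctggag
Kdm6a chrX:18263977-18264006: agaccactcagacaGtgaatctacatcatc
Phf8 repeat chrX:151633407-151633436: tgttgTtgCtgttgTtgCtgttgTtgttgt
Phf8 outside the repeat chrX:151633555-151633584: gcagagagTtggggtaggataAgagggcag

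The first holds the Kdm5c site with the most reads among those listed in all 12 libraries, and the second holds the Kdm6a site that all 12 libraries list. The other windows are the pair of Phf8 stretches that give opposite answers. With positions counted from 1 at the 5′ end of each window, the substitutions are T24G in Kdm5c, G15A in Kdm6a, T6G, C9T, T15C, C18T and T24C in the Phf8 repeat, and T9C and A22G in the other Phf8 window.

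Kdm5c lies at chrX:152233020-152274535, has 26 exons in the transcript used here and was measured in all 12 libraries with 9 to 32 sites and 328 to 1687 covering reads. To keep the same positions in every library, its share was first taken over the 14 sites that all 12 libraries list at any coverage, 11 in coding sequence and 3 in the 3′ UTR. Of the coding sites 9 are synonymous and 2 change an amino acid. In the first table set the share was 35.3% in MEF1, with a 95% Wilson interval of 31.5 to 39.2%. In LowK it was 27.7% (23.6 to 32.2%), 37.3% (34.6 to 40.2%) and 33.7% (30.2 to 37.5%) at days 35, 52 and 56. In MidK1 it was 32.8% (28.3 to 37.7%), 37.3% (34.1 to 40.6%) and 36.6% (32.5 to 40.9%) at the same days. LowK day 35 was the lowest of all libraries, and its interval overlapped that of the next library, MidK1 day 35.

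In the second set the Kdm5c share was 41.8% (38.1 to 45.7%) in MEF2. In MidK2 it was 38.1% (34.8 to 41.4%), 40.6% (37.4 to 43.8%), 35.7% (32.7 to 38.8%) and 37.9% (35.0 to 40.8%) at days 18, 22, 29 and 36. MEF2 was the highest library, and in the order from lowest to highest every library's interval overlapped that of its neighbour. All 12 intervals lay wholly below 50%. The intervals cover counting error only, and reads are not independent molecules, since the tables carry no molecular identifiers. Of the 35 Kdm5c sites that recur in 6 or more libraries, 17 lie within the 76 bases of a read from another. Sites that every library lists are among them, such as chrX:152271038 and chrX:152271089. A read that covers several sites is counted at each, so the Kdm5c intervals are too narrow.

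**Figure D1:**
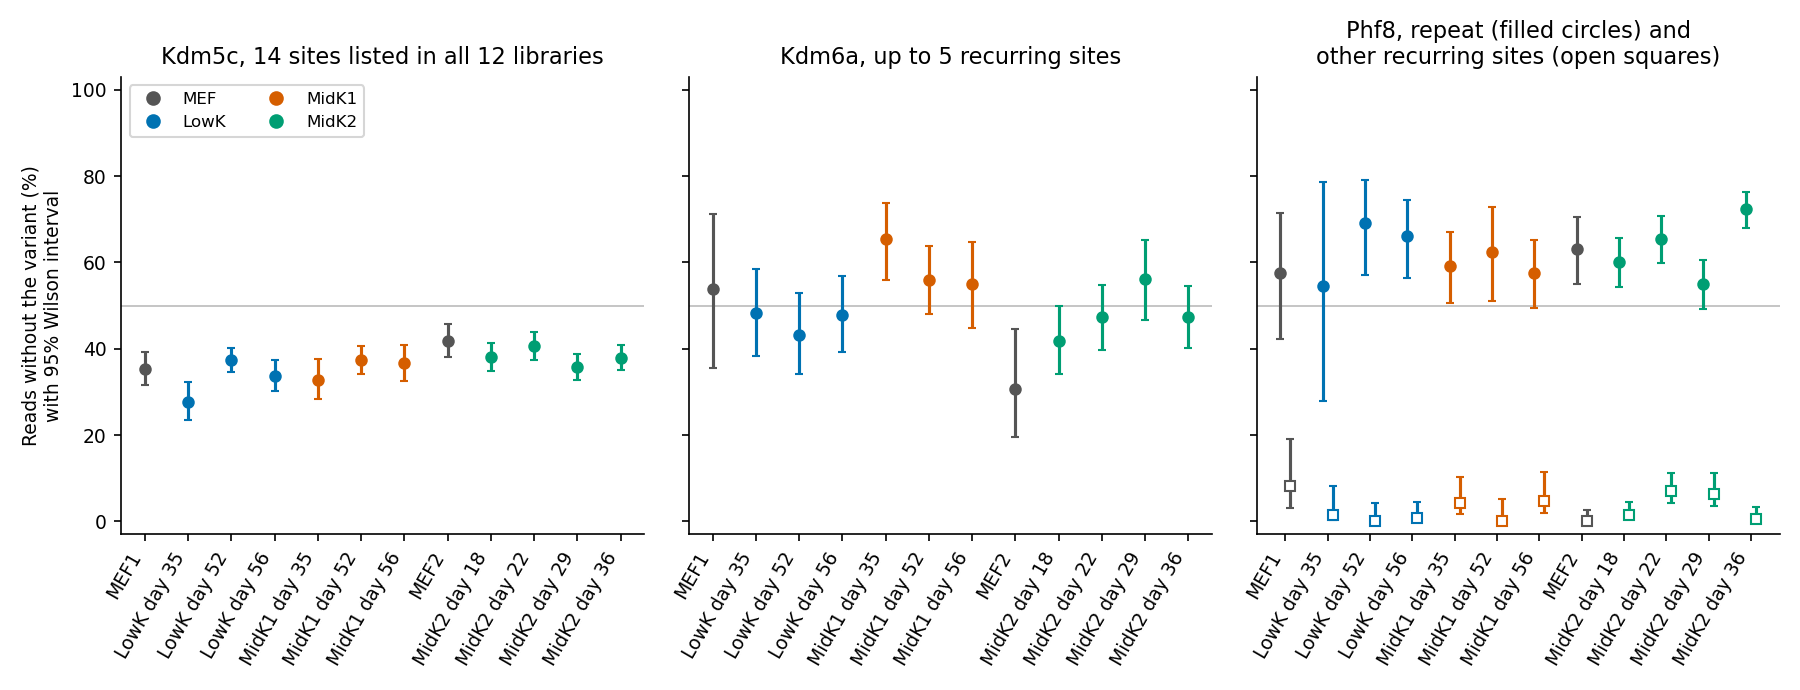
Percent of reads without the variant in each library (y axis) for Kdm5c over the 14 sites listed everywhere, for Kdm6a over its recurring sites and for Phf8 inside (filled circles) and outside (open squares) the repeat, with 95% Wilson intervals, all at any listed coverage. Kdm5c stays between 27.7 and 41.8%, Kdm6a between 30.6 and 65.4%, and the Phf8 classes stay apart in every library.

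Site by site, Kdm5c gave the same picture with wider scatter. At the site of the printed window (exon 25, synonymous) 25 of 78 reads in MEF1 did not carry the variant, a share of 32.1%, and the share in MEF2 was 30.5%. It was 31.4, 33.1 and 28.4% in LowK and 34.0, 39.7 and 35.6% in MidK1, in day order. In MidK2 it was 37.5, 48.1, 30.4 and 31.2%. Day 22 of MidK2 was the highest of the 12 at this site, and none reached 50%.

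Over the 14 sites, the medians per site ran from 31.1% (chrX:152270735, exon 22) to 46.8% (chrX:152271542, exon 23). Of the 168 values per site and library, at coverages of 10 to 157 reads, 148 were below 50%. The median standard deviation between sites of a library was 9.87 points, where counting error alone gives 7.77 points. Coding and 3′ UTR sites that recurred in 6 or more libraries gave pooled shares of 37.1 and 39.0%. The median was below 50% at 14 of 14 sites, so no single site set the level of Kdm5c.

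**Figure D2:**
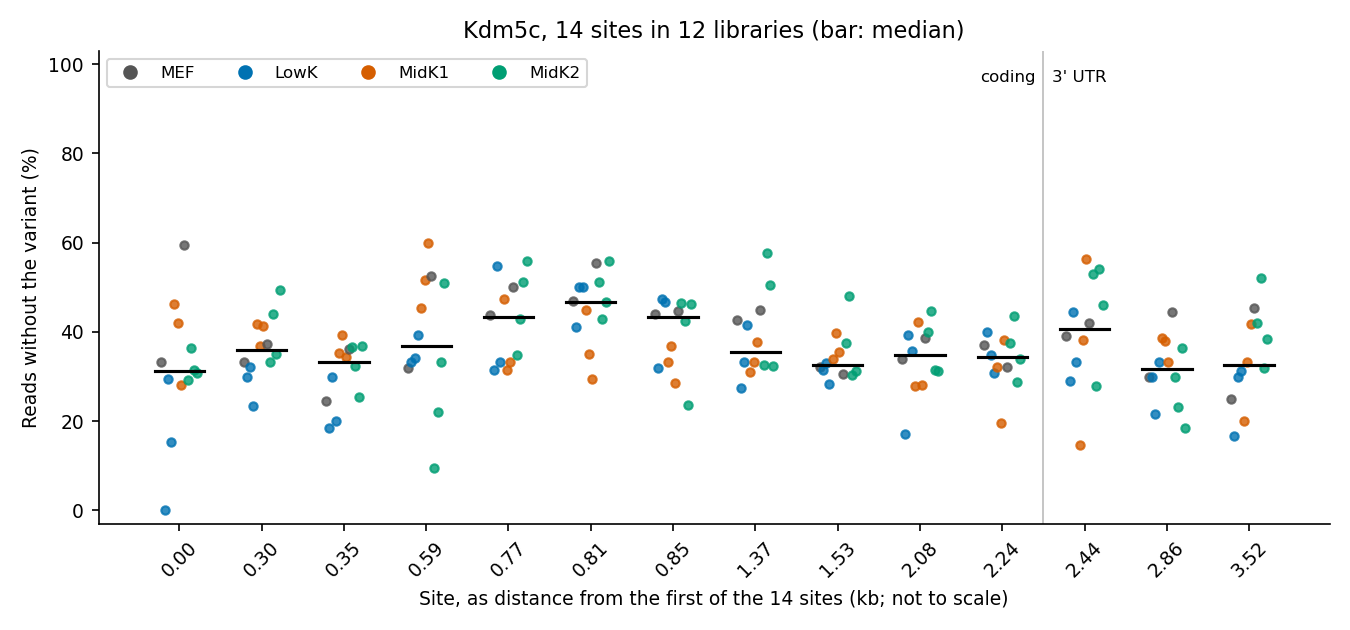
Percent of reads without the variant at each of the 14 Kdm5c sites listed in all 12 libraries (x axis, distance from the first of these sites in kb, not to scale), 1 point per library coloured by course, with the median as a bar. The site medians lie between 31.1 and 46.8%, in coding sequence and 3′ UTR alike.

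Taken over every site of 20 or more reads, the Kdm5c share was 37.7% in MEF1 and 50.4% in MEF2. It was 28.0, 36.8 and 34.2% in LowK, 36.7, 37.8 and 39.2% in MidK1 and 41.2, 44.3, 41.6 and 43.6% in MidK2. The 5 libraries of the second set were the highest here, but they also list sites that no other library lists. Such single-library sites of 20 or more reads appeared only in that set, 1 to 5 per library, and 93.6% of their 591 reads did not carry the variant. With sites listed in 6 or more libraries only, MEF2 was at 42.9% and MidK2 at 35.5 to 40.8%. A site at which over 90% of reads lack the variant is under the listing limit of the first set, so its tables could not list a site at such a share.

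A few Kdm5c sites lie in introns, where reads come from unspliced or retained RNA. The 2 that recurred, at chrX:152259282-152259292, are 10 bases apart, so reads are counted at both and the intervals are too narrow. Neither was listed in a MEF library, where it may be all reference, have variant reads under the listing limit, or be covered by fewer than 10 reads. The intronic share was 50% in LowK day 52 (10 reads) and 34.0% in LowK day 56. It was 44.1, 61.5 and 61.7% in MidK1 at days 35, 52 and 56, and 63.6, 74.1 and 43.5% in MidK2 at days 18, 22 and 29, on at most 68 reads. It was above the share at the 14 common sites in all 8 libraries that list them, and its interval lay wholly above theirs in 4 of 8 (MidK1 days 52 and 56, MidK2 days 18 and 22).

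Kdm5c was then compared between libraries over the sites that both list with 20 or more reads, with reads summed per gene, a two-sided Fisher's exact test and Benjamini-Hochberg adjustment over all genes of the pair. A pair is called at a difference of at least 20 points with an adjusted p below 0.05, and the test compares 2 libraries, not conditions. Because a read can be counted at several Kdm5c sites, p-values of this test tend to be too small and the intervals too narrow. Each reprogrammed library was set against the MEF library of its own table set, and 0 of these 10 pairs were called for Kdm5c, where 7.49% of all gene tests were. The differences ran from -8.06 points (MidK1 day 35) to 2.88 points (MidK1 day 56). The smallest adjusted p in Fisher's exact test was 0.0177, for MidK2 day 29 against MEF2, a difference of -6.28 points with a 95% Newcombe interval of -11.0 to -1.55. It was the only one of the 25 pairs with an adjusted p under 0.05.

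With Shield1 against without, MidK1 minus LowK, Kdm5c differed by 1.29 (95% interval -6.30 to 8.88), 0.180 (-3.96 to 4.35) and 6.11 points (0.485 to 11.7) at days 35, 52 and 56. Of these 3 pairs 0 were called, beside 8.31% of all gene tests, and the intervals hold no difference of 20 points. Between days of a course 0 of 10 pairs were called, beside 2.08% of all gene tests, with differences of -5.74 to 7.80 points. MidK2 day 36 was 5.11 points above MidK1 day 35, and MEF2 was 4.69 points above MEF1 (95% interval -0.0950 to 9.44). The background of the last comparison was 0.0% of 174 genes, and that of the courses at days 35 and 36 was 2.44% of 246.

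Averaged over libraries, the Kdm5c share was 38.3% ± 4.85 (SD, n = 10) in reprogrammed cells and 44.1% ± 8.95 (SD, n = 2) in MEF. The difference of -5.73 points had p = 0.197 in a two-sided exact permutation test over libraries, 0.538 after Benjamini-Hochberg adjustment over the 142 genes measured in all 12 libraries. Days of a course served as units in this test, whose smallest possible p is 0.0152, and 0 of the 142 genes passed. Without MEF2 the difference turned to 0.601 points. Within the first set it was -2.29 points, and within the second it was -7.72 points, each against 1 MEF library. The MEF2 and MidK2 shares in these averages include sites listed in 1 library only. Over recurring sites the difference across all 12 libraries was -4.28 points (exact permutation p = 0.182). Over sites listed in all 12 libraries it was -2.77 points (exact permutation p = 0.348).

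Among X-linked genes at any level the range of Kdm5c was ordinary, and its own level was high. Over the sites that recur in 6 or more libraries, its range over the 12 libraries was 14.9 points, against a median range of 12.2 points for the 142 genes measured in all of them, and 81 of these genes had a smaller range. It was 1 of the 9 genes whose share stayed at or above 10% in all 12 on those sites. The ranges of these 9 ran from 10.9 points (Nono) to 34.6 points (Utp14a), and only Nono had a smaller range than Kdm5c. From the highest share down Kdm5c ranked 7 of 193 genes in MEF1 and 12 of 213 in MEF2, where the median gene was at 3.91 and 3.74%. In reprogrammed libraries it ranked between 13 and 54 among 263 to 339 genes. Coverage of its 14 common sites, scaled as above, was 54.3 to 61.7 reads per site in MEF and 30.8 to 74.3 in reprogrammed cells, so the groups overlapped in depth as well as in share.

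Kdm6a lies at chrX:18162575-18279936, 133 Mb from the other genes, and has 29 exons in the transcript used here. At 20 or more reads it was measured in 10 libraries with 2 to 5 sites and 73 to 172 reads, and in neither MEF library. Its recurring sites had 10 to 15 reads in MEF and 10 to 80 in reprogrammed cells. At any listed coverage MEF1 gave 14 of 26 reads without the variant, a share of 53.8% (35.5 to 71.2%). MEF2 gave 15 of 49, a share of 30.6% (19.5 to 44.5%). Both alleles of Kdm6a were thus seen in fibroblasts, at a depth too low to set the shares apart.

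On the same basis, over the 5 sites that recur in 6 or more libraries (3 coding, 2 in the 3′ UTR), LowK gave 48.4% (38.4 to 58.5%), 43.3% (34.2 to 52.9%) and 47.9% (39.2 to 56.8%) at days 35, 52 and 56. MidK1 gave 65.4% (55.8 to 73.8%), 56.0% (48.0 to 63.7%) and 54.9% (44.7 to 64.8%) at those days. MidK2 gave 41.9% (34.2 to 49.9%), 47.3% (39.8 to 54.9%), 56.1% (46.6 to 65.1%) and 47.3% (40.3 to 54.5%) at days 18, 22, 29 and 36. MidK1 day 35 was the highest of the 12 libraries and MEF2 the lowest. The first table set lists variants down to 5 reads and the second down to 2. At low coverage the highest share that can be listed therefore differs between the sets, which limits this order. No 2 of the 5 sites lie within the 76 bases of a read, so no single read is counted at 2 of them. The smallest gap is 298 bases, and whether both reads of a pair were counted at different sites was not tested.

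The site of the printed Kdm6a window (exon 21, a change of amino acid) is the only one that all 12 libraries list, at 13 to 38 reads. Its share was 53.3% in MEF1 and 30.8% in MEF2. It was 50, 51.5 and 44.7% in LowK, 73.3, 59.5 and 58.6% in MidK1, and 36.8, 50, 55.6 and 57.7% in MidK2, in day order. From the lowest library (MEF2) to the highest (MidK1 day 35), every interval overlapped that of the next.

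Single-library sites touched Kdm6a too. At 20 or more reads the gene-level shares were 53.4, 43.7 and 42.2% in LowK, 72.4, 56.0 and 56.2% in MidK1 and 55, 51.7, 70.7 and 48.8% in MidK2. The 70.7% of MidK2 day 29 came from 2 sites, and 1 of them, at 94.6%, was listed in that library alone. The site listed elsewhere gave 54.5% on 55 reads. At day 18 a site of the same kind at 93.1% took the gene from 44.1 to 55%.

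Kdm6a was higher in MidK1 than in LowK at each matched day, and 0 of the 3 pairs were called, beside 8.31% of all gene tests. The difference was 18.9 points at day 35 (95% Newcombe interval 3.44 to 33.3), with an adjusted p of 0.0514 in Fisher's exact test. It was 12 points at day 52 (-2.15 to 25.5) and 13.9 points at day 56 (-1.44 to 28.4), with adjusted p of 0.249 and 0.188 in Fisher's exact test. At a minimum of 10 reads per site the differences were 19.0 points at day 35 (adjusted p = 0.0374 in Fisher's exact test, under the 20 points of a call), 12.9 at day 52 and 7.72 at day 56 (-6.12 to 21.1). Site by site, MidK1 was higher in 11 of the 12 comparisons of a recurring site at a matched day. Over days, the mean share was 61.5% ± 9.40 (SD, n = 3) in MidK1 and 46.4% ± 6.09 (SD, n = 3) in LowK. The difference of 15.1 points had an exact permutation p of 0.1, the smallest that 3 against 3 allows, and 0.342 after adjustment over 219 genes. With the 3 days as pairs, the mean difference at shared sites was 15 points ± 3.59 (SD, n = 3), with an exact sign-flip p of 0.25, the smallest that 3 pairs allow. Shares of the LowK and MidK1 days did not overlap for Kdm6a. That is the split which gives the smallest permutation p, and not a further result. How many of the 219 genes split in this way, or had such site directions, was not counted, so neither is called particular to Kdm6a. Both courses belong to the same table set.

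Between days 0 of 10 pairs were called for Kdm6a, beside 2.08% of all gene tests. The largest fall was that of MidK1 from day 35 to day 52, by -16.4 points (95% interval -29.2 to -2.26), and its adjusted p was 0.142 in Fisher's exact test. The only call among 14 pairs was between the courses with Shield1: MidK2 day 36 was at 49.3% of 138 reads and MidK1 day 35 at 72.4% of 76 reads over 3 shared sites. The difference of -23.1 points (95% interval -35.1 to -9.39) had an adjusted p of 0.00618 in Fisher's exact test, in a comparison that called 2.44% of genes. It was lost at a minimum of 10 reads per site, with -18.1 points and an adjusted p of 0.0150 in Fisher's exact test, and with the single best-covered site, with -32.3 points and an adjusted p of 0.0897 in Fisher's exact test. These libraries come from different table sets and differ by 1 day, and course, day and table set cannot be told apart.

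At the site all 12 libraries list, the mean Kdm6a share was 53.8% ± 9.77 (SD, n = 10) in reprogrammed cells and 42.1% ± 16 (SD, n = 2) in MEF. The difference of 11.7 points was within the spread between libraries (exact permutation p = 0.227, adjusted 0.627). At a minimum of 10 reads, 1 of 10 pairs against MEF was called, MidK2 day 29 against MEF2, with 56.1% against 30.6% over 4 sites and an adjusted p of 0.00747 in Fisher's exact test. The background at that minimum was 6.47%. Scaled coverage of the shared site was 15.4 to 22.0 reads in MEF and 16.7 to 39.1 in reprogrammed cells.

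Because the Y copies of Kdm5c and Kdm6a resemble them, the listed variants were set beside the Y copies' bases. The coding sequences were 77.5% identical between Kdm5c and Kdm5d and 82.9% between Kdm6a and Uty over the aligned bases. Of 1033 aligned coding bases that differ between Kdm5c and Kdm5d, 16 were listed as variants, and at 8 of 35 aligned Kdm5c sites the variant was the Kdm5d base. For Kdm6a these numbers were 4 of 618 and 2 of 5. Whether reads of the Y copies add to any share was not tested.

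Phf8 lies at chrX:151520672-151633859, 599 kb before Kdm5c, and has 22 exons in the transcript used here. At 20 or more reads it was measured in all 12 libraries, with 1 to 12 sites, all of them in the 3′ UTR of the last exon. The gene-level share was 34.1% in MEF1 and 39.3% in MEF2. It was 0.0, 41.3 and 38.5% in LowK, 37.8, 36.9 and 41.6% in MidK1, and 40.3, 48.8, 41.9 and 58.6% in MidK2, in day order. Beside the Kdm5c share over its sites of 20 or more reads, Phf8 was farthest off in LowK day 35 (0.0 against 28.0%, on 1 Phf8 site of 20 reads), in MidK2 day 36 (58.6 against 43.6%) and in MEF2 (39.3 against 50.4%). The Phf8 values are averages over unlike sites, since the median standard deviation between sites of a library was 33.3 points, where counting error gives 8.99. In 2 libraries, MidK2 days 22 and 36, they also hold 1 to 3 sites listed in that library only, with shares of 91.7 and 91.8%. With recurring sites only, MidK2 day 36 was at 54.4%, still the highest of the 12 libraries.

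The repeat held 5 sites that recur in 6 or more libraries, all within 19 bases. In the window printed above, 25 of 30 bases equal the base 3 positions before, where 28.3% of all bases of the transcript do. The motif TGTTGT, searched on the transcript's strand with overlaps allowed, is in 3.11% of the 30-base windows of the transcript. With all 5 variant bases the window reads as follows.
Phf8 repeat with variants: tgttgGtgTtgttgCtgTtgttgCtgttgt

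The window holds 2 cytosines, at positions 9 and 18, and with the variants it again holds 2, at positions 15 and 24. Each is displaced by 6 bases, the length of the deletion of 1 TGTTGT unit that 7 libraries list within the window, where 85.0 to 87.4% of reads did not carry it. A 1-base deletion near the end of the window was listed in 11 libraries, at 61.5 to 91.0% of reads without it. Whether reads with a deletion enter the coverage of these sites was not tested, so the share in the repeat is given as a share of reads without that base change. Whether the 5 substitutions sit on the same reads is not in the tables.

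Inside the repeat the share was 57.5% in MEF1 and 63.0% in MEF2 at any listed coverage. It was 54.5, 69.2 and 66.0% in LowK, 59.1, 62.5 and 57.5% in MidK1, and 60.1, 65.5, 55 and 72.3% in MidK2, in day order. MidK2 day 36 was the highest, with an interval of 67.9 to 76.3%. From the first to the last repeat site listed the share was lower in each of the 11 libraries with several sites, and in 9 of them it never rose on the way. In MidK2 day 36 it went from 84.4 to 59.8%, in MidK2 day 29 from 74.5 to 36.1%, and in MEF2 from 75.0 to 48.4%. The step was small in MEF1, from 57.9 to 57.1%, and in LowK day 52, from 72.7 to 65.0%. The 5 sites lie within 1 read length, so the same reads are counted at several of them.

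Outside the repeat, 6 Phf8 sites recurred, 5 in the 3′ UTR and 1 in coding sequence. Their pooled share was 8.16% (4 of 49 reads) in MEF1 and 0.0% (0 of 136 reads) in MEF2. It was 1.54, 0.0 and 0.820% in LowK, 4.17, 0.0 and 4.71% in MidK1, and 1.60, 6.93, 6.33 and 0.588% in MidK2, in day order. The highest reprogrammed value, 14 of 202 reads in MidK2 day 22, is below the lowest repeat value of any library. The pair of sites in the window printed last lies 133 and 146 bases after the repeat, and these were at 0 to 5.41% and 0 to 10% in the 12 libraries. Over the coding sites listed in 2 or more libraries, 12 of 20 values were 0 and the highest was 16.7%. A change of 2 neighbouring bases in the 3′ UTR, listed in 10 libraries, had 0 to 5.56% of reads without it.

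**Figure D3:**
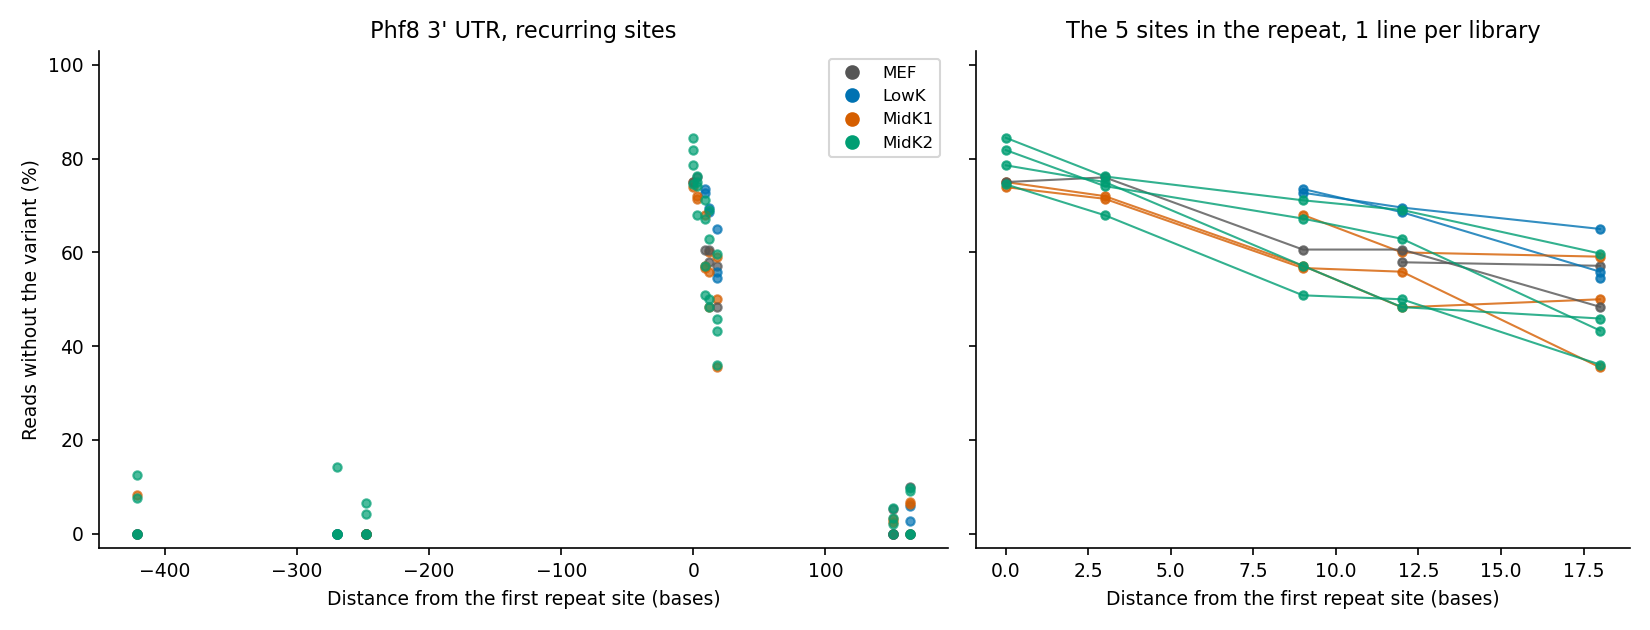
Left, percent of reads without the variant at the recurring Phf8 sites of the 3′ UTR against the distance from the first repeat site in bases. Right, the 5 repeat sites with 1 line per library. Sites on either side of the repeat lie at 0 to 14.3%, and the repeat sites lie at 35.5 to 84.4%, lower at the last site than at the first in each library with several.

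Compared between libraries, Phf8 was called in 0 of 9 pairs against MEF, 0 of 3 with Shield1 and 0 of 10 between days. The backgrounds are those given for Kdm5c. Without passing 20 points, MidK2 day 36 was 18.3 points above day 29, 16.6 above day 18 and 17.5 above MEF2, with adjusted p of 4.4e-07, 2.56e-06 and 4.84e-05 in Fisher's exact test. The only call was MidK2 day 36 against MidK1 day 35, 60.2% of 518 reads against 37.8% of 217 reads over 7 sites. The difference of 22.4 points (95% interval 14.6 to 29.9) had an adjusted p of 4.12e-07 in Fisher's exact test.

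The sites did not move together in this pair. Over the repeat alone the difference was 13.2 points (adjusted p = 0.0171 in Fisher's exact test). Over sites outside the repeat it was -3.57 points (adjusted p = 0.362 in Fisher's exact test). A Cochran-Mantel-Haenszel test stratified by site gave an adjusted p of 0.0710. For MidK2 day 36 against day 29 the difference was 17.4 points over the repeat (adjusted p = 1.58e-05 in Fisher's exact test) and -4.75 points outside it. Against day 18 it was 12.3 points over the repeat (adjusted p = 0.00364 in Fisher's exact test) and 0.146 outside it. Against MEF2 it was 9.31 points over the repeat (adjusted p = 0.125 in Fisher's exact test) and 0.840 outside it.

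Stratified by site, the Cochran-Mantel-Haenszel test gave adjusted p of 1.50e-04 against day 29, 0.00616 against day 18 and 0.164 against MEF2, so the difference from MEF2 did not hold in it. The mix of sites also differed: repeat sites held 83.0% of the 518 reads of MidK2 day 36 at the sites shared with MidK1 day 35 and MidK2 day 29, and 60.8 and 73.4% of the reads of those libraries. At the sites shared with MEF2 and with MidK2 day 18 they held 78.3% of its 549 reads, and 62.4 and 66.7% of theirs. A difference summed over sites thus holds both the mix and the shares at each site. Outside the repeat, the largest rise of any pair was 7.59 points, for MidK2 day 22 minus MidK2 day 18 and minus MEF2. The adjusted p was 0.00493 and 0.0282 in Fisher's exact test, and neither pair was called. The median difference over all genes was 3.56 and 7.95 points in these pairs.

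**Figure D4:**
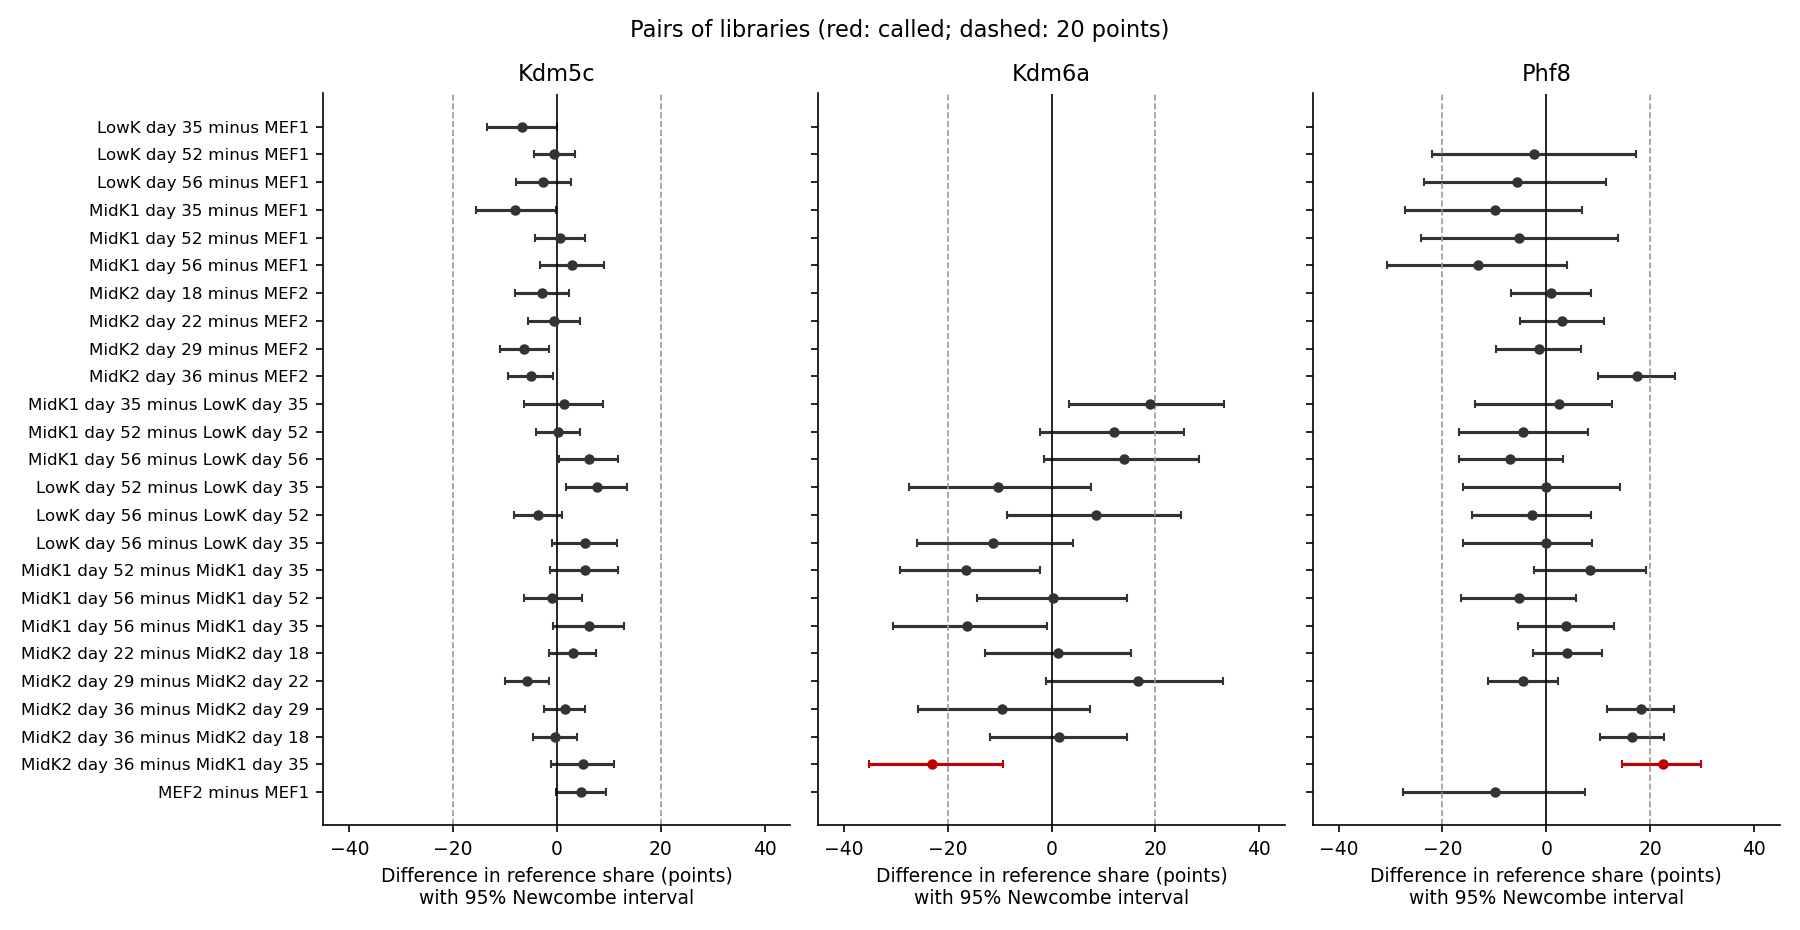
Difference in reference share between 2 libraries in percentage points, second minus first (x axis), for each pair compared (y axis), with 95% Newcombe intervals, over sites both libraries list with 20 or more reads. The Kdm5c differences lie between -8.06 and 7.80 points, and the only calls (red) are those of Kdm6a and Phf8 in MidK2 day 36 minus MidK1 day 35, at -23.1 and 22.4 points.

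Over libraries the mean Phf8 share was 38.6% ± 15 (SD, n = 10) in reprogrammed cells and 36.7% ± 3.66 (SD, n = 2) in MEF, a difference of 1.84 points (exact permutation p = 0.712, adjusted 0.903). It turned to -0.743 points without MEF1 and to -1.97 points over the 3 sites listed in all 12 libraries. MidK1 and LowK differed by 12.2 points over days (exact permutation p = 0.8), where LowK day 35 rests on a single site, by -1.20 points over the 3 common sites, and by -2.95 points ± 4.84 (SD, n = 3) as a mean over matched days at shared sites (exact sign-flip p = 0.5).

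Kdm5c was set beside the genes within 1 Mb of it or of Phf8 that were measured in 6 or more libraries. Relative to the start of Kdm5c, Smc1a (a cohesin subunit) starts at -0.217 Mb and Tspyl2 at 0.104 Mb. Smc1a was at 4.21 to 13.3% in MEF and 0.0680 to 15.5% in reprogrammed libraries, and Tspyl2 was at 5.04 to 5.72% and 2.69 to 32.8%. The 13.3% is MEF2 over all its listed sites, and at sites shared with other libraries MEF2 was at 0.955 to 1.06% for Smc1a. Kdm5c was higher than each in 12 of 12 libraries, by at least 25.9 points over Smc1a and 8.79 over Tspyl2. Kdm5c was also above, in all 12 libraries, Huwe1 (a ubiquitin ligase), Hsd17b10 (a mitochondrial dehydrogenase) and Gnl3l, and, in all shared libraries, Tsr2 (11), Ribc1 (10) and Mageh1 (7). The exceptions were Maged2, which was at 80.8% in MidK2 day 29 and was above Kdm5c in 3 of 8 libraries, and the pseudogene Gm6451, above it in 5 of 7. The 80.8% is over all sites that library lists. At sites shared with MEF2, Maged2 was at 45.6% of 90, 63.6% of 132 and 54.5% of 22 reads in MidK2 days 18, 22 and 29. These are descriptions of levels, and the difference between genes was not tested.

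**Figure D5:**
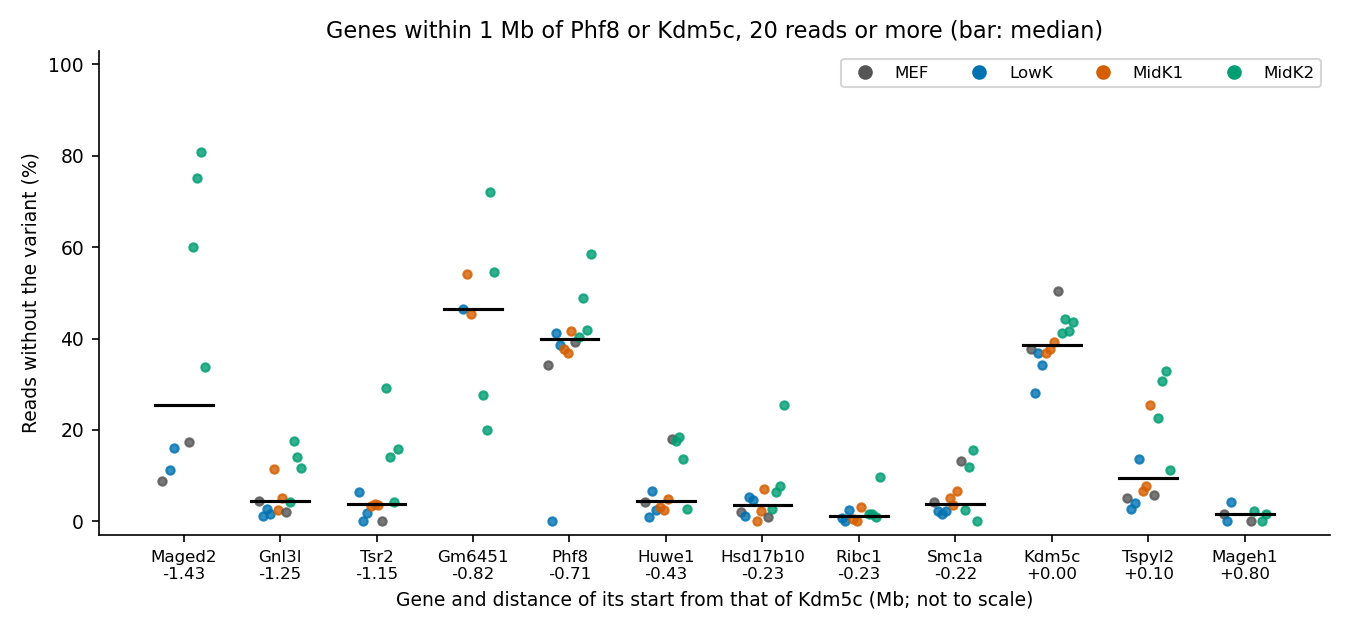
Percent of reads without the variant for each gene within 1 Mb of Phf8 or Kdm5c that was measured in 6 or more libraries (x axis, with the distance of its start from that of Kdm5c in Mb, not to scale), 1 point per library, with the median as a bar. Kdm5c, Phf8 and Gm6451 have the 3 highest medians, and Smc1a, Hsd17b10, Ribc1 and Huwe1 between Phf8 and Kdm5c have medians of 1.20 to 4.50%. The Phf8 median of 39.8% includes the repeat sites, and outside the repeat the Phf8 median is 3.01%, within the range of those neighbours.

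Fundc1, a mitophagy receptor, was the only other gene measured within 1 Mb of Kdm6a. It was at 4.35 to 44.7% in MEF and 7.94 to 63.4% in reprogrammed libraries. The 44.7% is MEF2 over all its listed sites. At sites shared with other libraries MEF2 was at 0.0% of up to 74 reads for Fundc1, and MEF1 at 4.35% of 115. Fundc1 was called in 12 of 25 pairs, each time with the higher share in the second library. Kdm6a was above it in 9 of 10 libraries. Over all neighbours, 10 of 75 tests against MEF were called higher and 0 lower, from Fundc1 and Maged2 alone, beside 7.49% of all gene tests.

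Among 27 X-linked chromatin genes listed for comparison, 24 were measured, the 3 demethylases among them. Against MEF 8 of the 140 tests of the list were called higher and 0 lower, all for Hdac6 (a deacetylase) and Bcor (a corepressor of transcription), where all genes gave 7.49%. With Shield1 6 of 67 were called higher, for Bcor, Bcorl1 and Hdac6, beside 8.31% of all gene tests. Between days 4 of 228 were called higher, for the same genes, beside 2.08%. Between the courses 3 of 24 were called, beside 2.44% of all genes: Kdm6a lower, and Phf8 and Med14 (a Mediator subunit) higher, Med14 by 38.6 points. Without the 3 demethylases it was 1 of 21 (4.76%). Hdac6 was called in 9 pairs, from shares of 0.578 to 5.56% in the first library to 24.2 to 38.9% in the second.

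Of 14 listed escape genes 13 were measured. Their calls against MEF were 17 of 79, all higher, beside 7.49% of all gene tests. All came from 1810030O07Rik and Bgn, a matrix proteoglycan gene. At the sites shared in these pairs, 1810030O07Rik was at 1.19 to 4.29% and Bgn at 1.15 to 3.72% in MEF. These fibroblast values do not bear out the escape label of either gene, so the share of calls is not a trait of escape genes. By the smallest mean absolute difference over libraries, with 262 genes compared, the gene most like Kdm5c was Pbdc1 at 3.83 points over 12 libraries, then Alg13 at 4.91 over 10 and Phf8 at 6.39 over 12. For Kdm6a the order over 10 libraries was Ddx3x (an RNA helicase) at 7.75 points, Eif2s3x (a translation initiation factor) at 8.41 and 1810030O07Rik at 12.5. For Phf8 it was Kdm5c at 6.39 points over 12 libraries, Alg13 at 7.45 over 10 and Pbdc1 at 7.56 over 12. Over recurring sites alone the first-named gene was the same for each of the 3. The likeness of Phf8 to Kdm5c is one of averages, since no recurring Phf8 site outside the repeat had a share above 16.7% in any library.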

How the data were processed

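The data are 12 tables of X-chromosome variants from poly(A) RNA-seq (paired reads of 76 bases, NextSeq500, directional NEBNext kit, per the labels' protocols and the series text). The authors' caller was Basic Variant Call of CLC Genomics Workbench, per the series text, and the build was mm10, as the submitters' processing notes state. Aligner and caller settings belong to the steps not given in the sources used here. For each variant the tables hold, per the file headers, a count of variant reads and of covering reads, not normalised, and a deposited percent of variant reads, which matched count over coverage to within 5.04e-09 points. An average base quality score, deposited by the authors in 7 tables, served only as a filter in an alternative.

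Gene names are those of the tables. Where a position listed several single-base alleles the one with more reads was kept (69 dropped, 0 in these genes). The share of a gene sums reads over its sites of 20 or more reads, with 95% Wilson intervals. Libraries were compared by two-sided Fisher's exact tests and exact permutation tests with Benjamini-Hochberg adjustment (Python 3.11.15, SciPy 1.17.1), checked on simulated data. Annotation and sequences are GENCODE M21. Alternatives changed the coverage minimum, site choice, quality filter, difference limit and test. Further choices (recurring sites, repeat only, outside the repeat only, days as pairs) were made after the data were seen. Named genes are the 3 members, neighbours within 1 Mb measured in 6 or more libraries, called genes of the chromatin list and the 3 genes most alike; called escape genes were named after their values were seen. Members and lists were chosen with earlier results of these data known.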

Additional observations from a re-analysis of the deposited data

Results flagged for a closer look

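Between the courses with Shield1, MidK2 day 36 minus MidK1 day 35, Kdm6a differed by -23.1 points of reference share and Phf8 by 22.4 points, which drew attention because courses under the same agent differed in the test itself. The genes moved in opposite directions, and each pair is 1 library against 1 library from a different table set. For Phf8 the difference is 13.2 points in the repeat and -3.57 points outside it.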

How the results depend on the processing

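At 50 reads per site Kdm6a and Phf8 are listed in 4 libraries each and called in 0 pairs, but the pair called at 20 reads could not be tested there. They are called in 0 pairs instead of 1 with the single best-covered site and at a limit of 30 points. Phf8 is called in 0 pairs by the Cochran-Mantel-Haenszel test, in 0 with repeat sites only and in 0 outside the repeat, and in 4 at a limit of 10 points. Kdm5c is called in 0 pairs under every setting. Its median share over libraries is 38.5%, and 31.8% with the single site. The Phf8 median of 39.8% becomes 21.4% with the single site, 55.2% as a median over sites and 3.01% outside the repeat. Outside the repeat the Phf8 differences reverse to -3.57 points (MidK2 day 36 minus MidK1 day 35) and -4.75 points (minus MidK2 day 29). Calls over all genes were 128 against MEF, 60 with Shield1, 54 between days, 6 between courses and 0 between the MEF libraries. At 50 reads they were 53, 27, 22 and 0 for the first 4 kinds. At a limit of 10 points they were 299, 107, 217, 23 and 1, and at 30 points 80, 38, 16 and 2. The mean of reprogrammed minus MEF libraries ranged from -12.1 to 0.601 points for Kdm5c and from -0.743 to 4.43 for Phf8 when 1 MEF library was left out. Over sites listed everywhere it was -2.77 for Kdm5c and -1.97 for Phf8. MidK1 minus LowK for Phf8, 12.2 points over days, reverses to -1.20 points at sites listed everywhere and -2.95 paired by day. The cause of these changes was not tested, except that higher minimums and limits leave fewer sites and calls by construction. Depth limits Kdm6a most, at 10 to 15 reads per recurring site in MEF. No paired analysis was possible because of replicate numbers, which pair no groups, while the shared days of LowK and MidK1 were used as pairs as an alternative chosen after seeing the data.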
